A study of Homo sapiens with 4 samples.

Results

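The genes described here are 9 transcripts that interferons induce: BST2, ISG15, IFI27, IFI6, IFITM1, IFITM2, IFITM3, IFIT1 and IRF1. They were chosen by name, with earlier results of these data known, and were read from the row with that single gene symbol. Each of the 9 has 1 such row on the array, out of 19460 rows with 1 symbol. They were measured in HepG2, an established human hepatocellular carcinoma line grown in serum-supplemented medium, after lipid transfection of an antisense inhibitor of the microRNA miR-191 (anti-miR-191) or of a negative control anti-miR. Each agent was used in 2 independent experiments, which gave 4 Affymetrix arrays, 2 per group and 1 of each group per experiment. All cultures were thus transfected, and the sources used here give neither the anti-miR dose nor the time of harvest. Values are the deposited RMA intensities on the log2 scale, and a change is anti-miR-191 minus control on that scale.

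Interferons are secreted proteins that signal through paired surface receptors and Janus kinases to STAT transcription factors. Type I and type III interferons form the complex ISGF3, of which IRF9 is a part and which binds the interferon-stimulated response element (ISRE) of its target promoters. Interferon gamma acts mainly at the gamma-activated sequence (GAS), and IRF1 is a classical gene switched on that way. Hepatocytes respond to interferons with a broad set of antiviral proteins, and several of these genes also keep a basal level without added interferon.

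The inhibited microRNA is printed first because it names the treatment. Its mature sequence from RefSeq (GRCh38.p14, chr3:49020672-49020694, minus strand) has its seed, bases 2 to 8, in capitals.
hsa-miR-191-5p: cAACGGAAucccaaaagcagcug

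Promoter windows are shown to place the response elements in the genes whose levels follow. RefSeq promoter entries (GRCh38.p14) matched 8 of the 9 genes. The 250 bases before each start were searched on both strands for the ISRE core GAAANNGAAA and the GAS core TTCNNNGAA, and overlapping matches were counted separately. Each window below is 30 bases, read 5′ to 3′ on the gene's strand, and its capitals mark the matches, which for IRF1 are to the GAS core and for the other genes to the ISRE core.
BST2: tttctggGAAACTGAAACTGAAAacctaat
ISG15: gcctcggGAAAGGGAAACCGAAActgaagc
IFI27: gcagTTTCGGTTTCctgGAAAATGAAAcct
IFI6: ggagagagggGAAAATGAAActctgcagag
IFITM1: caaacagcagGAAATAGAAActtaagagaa
IFITM3: agGAAAAGGAAActgttgaGAAACCGAAAc
IFIT1: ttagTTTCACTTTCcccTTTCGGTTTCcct
IRF1: aacagcctgatTTCCCCGAAatgacggcac
The windows lie at chr19:17405738-17405767 (BST2), chr1:1013377-1013406 (ISG15), chr14:94110624-94110653 (IFI27), chr1:27672329-27672358 (IFI6), chr11:313990-314019 (IFITM1), chr11:320885-320914 (IFITM3), chr10:89392503-89392532 (IFIT1) and chr5:132490879-132490908 (IRF1).

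An ISRE core was found in 7 of the 8 promoters and a GAS core in 4 of them (BST2, IFI27, IFITM1 and IRF1). BST2, ISG15, IFI27, IFITM3 and IFIT1 each had 2 ISRE matches, IFI6 had 3 and IFITM1 had 1. The IRF1 window held a GAS core and 0 ISRE cores. Over all 27305 genes with a promoter entry, 3.71% held the ISRE core and 8.09% the GAS core in the same window. A match is a stretch of letters and does not show that a factor was bound in these cells.

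After anti-miR-191 the membrane-protein and ISG15 genes were lower and IRF1 was higher. In the paired limma fit, whose model has a term for the experiment, BST2, ISG15, IFI27, IFITM1, IFITM2 and IFITM3 fell, IRF1 rose, IFI6 did not pass and IFIT1 was too dim to test. The words rose and fell are used where the Benjamini-Hochberg adjusted p over the 14147 genes tested was under 0.05. Of all genes tested, 3.77% fell and 10.1% rose by that rule, and 8 of the 9 members were tested, of which 6 fell and 1 rose. The median change of the 8 tested members was -0.72 (-0.64 in experiment 1 and -0.86 in experiment 2), and that of all genes tested was 0.01. The unpaired fit, which leaves the experiment out, called 2 members lower (BST2 and IFITM1) and 1 higher (IRF1), where 0.714% of all genes fell and 3.20% rose.

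**Figure D1:**
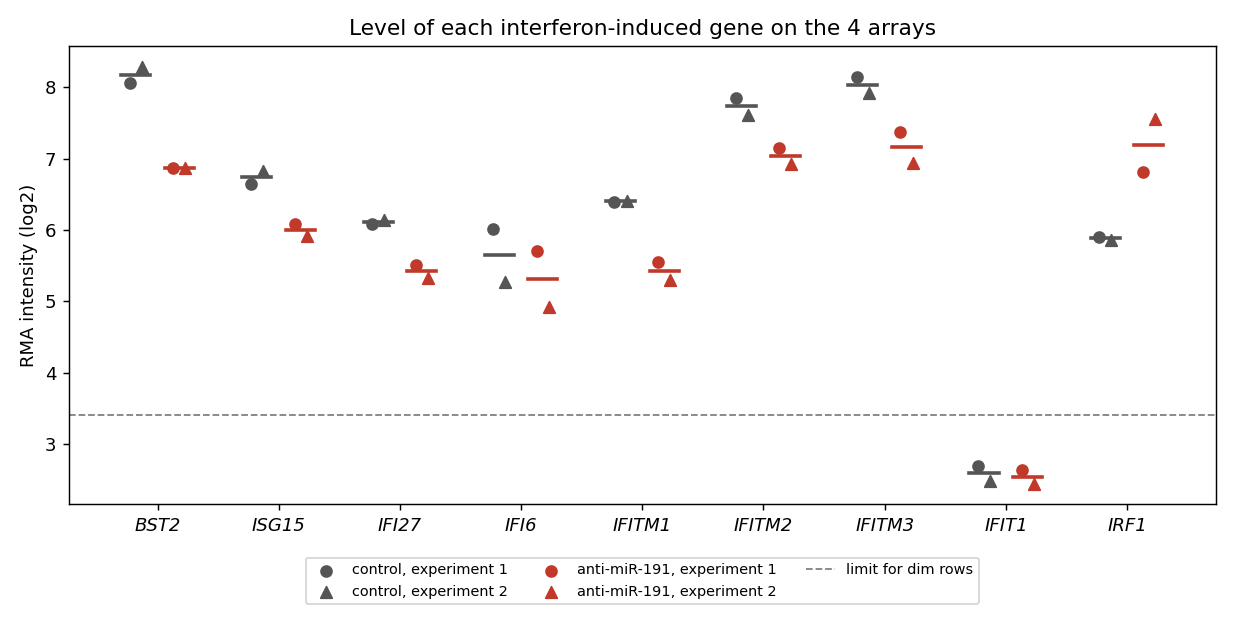
RMA intensity (log2) of the 9 genes on the 4 arrays, with controls in grey, anti-miR-191 in red, circles for experiment 1, triangles for experiment 2, and bars at the group means. BST2 lies at 6.87 on both anti-miR-191 arrays and above 8 in controls, IRF1 runs the other way, and IFIT1 lies below the dashed limit of 3.41 for dim rows.

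BST2 encodes tetherin, a membrane protein that holds budding enveloped viruses at the cell surface. Its level was 8.06 and 8.29 in the controls of experiments 1 and 2, and 6.87 and 6.87 after anti-miR-191. Both treated arrays were low and both controls high, with a gap of 1.18 between the groups. BST2 fell 2.46-fold (-1.30 ± 0.15, limma SE, 2 arrays per group), with changes of -1.18 and -1.42 in experiments 1 and 2. Limma's adjusted p was 0.0035 in the paired fit and 0.023 in the unpaired fit. Of all genes tested, 0.127% had a lower mean change than BST2.

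ISG15 encodes a ubiquitin-like protein that is conjugated to other proteins and is also secreted. The controls read 6.65 and 6.83 and the anti-miR-191 arrays 6.08 and 5.92, so the groups did not overlap. ISG15 fell 1.67-fold (-0.74 ± 0.16), by -0.57 in experiment 1 and -0.91 in experiment 2. Its adjusted p by limma was 0.021 in the paired fit and 0.059 in the unpaired fit, which ended the call.

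IFI27 and IFI6 encode small hydrophobic proteins of related sequence that have been placed at intracellular membranes. IFI27 read 6.08 and 6.13 in controls and 5.51 and 5.33 after anti-miR-191. The treated arrays lay below both controls. IFI27 fell 1.61-fold (-0.69 ± 0.15), with limma's adjusted p = 0.023 in the paired fit and 0.062 in the unpaired fit, which ended the call. IFI6 read 6.02 and 5.28 in controls and 5.71 and 4.92 after anti-miR-191, so that its groups overlapped. The experiments differed more than the treatments did for IFI6: its control was lower by 0.74 in experiment 2, and its changes were -0.31 and -0.35. IFI6 did not pass in either fit (-0.33 ± 0.14, limma's adjusted p = 0.183 paired and 0.636 unpaired). Of 12 markers of other cell types, 2 read higher than the mean control level of IFI6, so IFI6 is not shown to be above background.

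The IFITM genes encode small membrane proteins that hinder the fusion of viral with cellular membranes. IFITM1 acts mainly at the cell surface, whereas IFITM2 and IFITM3 act mainly in endosomes. The 3 genes are neighbours on chromosome 11 and close relatives in sequence, so their probes may share signal and their values are not independent.

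IFITM1 read 6.39 and 6.41 in controls and 5.55 and 5.30 after anti-miR-191. The controls were nearly alike, and both treated arrays lay below them. IFITM1 fell 1.96-fold (-0.97 ± 0.15), with changes of -0.83 and -1.11 and limma's adjusted p of 0.0080 in the paired and 0.035 in the unpaired fit.

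IFITM3 read 8.14 and 7.92 in controls and 7.38 and 6.94 after anti-miR-191. It fell 1.83-fold (-0.87 ± 0.15), by -0.76 and -0.98 in experiments 1 and 2. Both treated arrays were the lower ones, and experiment 2 was the lower experiment in either group. IFITM2 read 7.85 and 7.62 in controls and 7.15 and 6.93 after anti-miR-191, with no overlap. IFITM2 fell 1.62-fold (-0.69 ± 0.14), and its changes of -0.70 and -0.69 were the closest to each other among the genes that fell. Limma's adjusted p for IFITM3 and IFITM2 was 0.011 and 0.020 in the paired fit, and 0.069 and 0.077 in the unpaired fit, which ended both calls.

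IFIT1 encodes a protein that binds foreign RNA by its cap structure and is a sensitive reporter of type I interferon. It read 2.69 and 2.48 in controls and 2.64 and 2.44 after anti-miR-191. All 4 values lie below 3.41, the level under which the dimmest 33.3% of rows were left out. All 12 markers of other cell types had a higher control level, so IFIT1 is not shown to be above background in either group, and no fold is given.

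IRF1 encodes a transcription factor that activates interferon and antigen presentation genes and restrains proliferation. The controls read 5.90 and 5.86, and the anti-miR-191 arrays 6.81 and 7.56. The controls were nearly alike, while the treated arrays differed by 0.74, and the groups did not overlap. IRF1 rose by 1.30 ± 0.20 on the log2 scale, by 0.91 in experiment 1 and 1.70 in experiment 2. Of the 12 markers of other cell types, 2 read higher than its mean control level, so that level is not shown to be above background and no fold is given. It passed in the paired fit and narrowly in the unpaired fit (limma's adjusted p = 0.0078 and 0.048). Of all genes tested, 98.7% had a lower mean change.

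**Figure D2:**
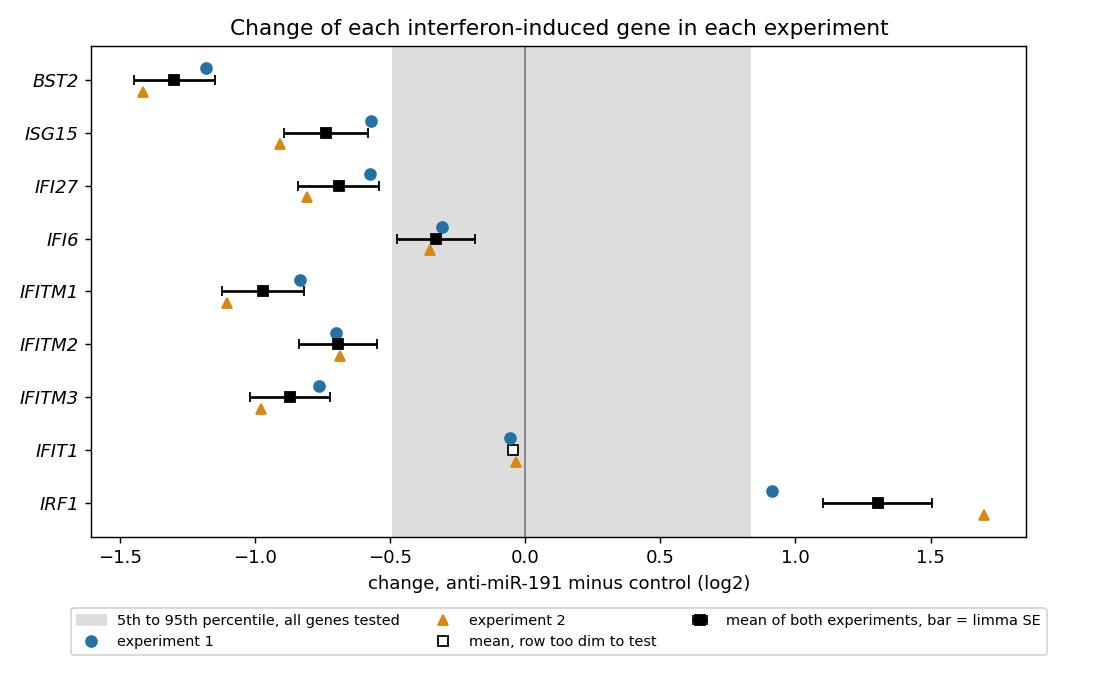
Change of each gene, anti-miR-191 minus control (log2), in experiment 1 (circles) and experiment 2 (triangles), with the mean and its limma SE (squares and bars). The grey band spans the 5th to 95th percentile of all genes tested (-0.49 to 0.83), and the 6 genes that fell and IRF1 lie outside it in the mean, while IFI6 and IFIT1 lie inside.

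The experiments gave the same direction for each of the 9 genes, and 8 of them were lower in both, IFIT1 by -0.06 and -0.04 in dim rows. Among all genes tested, 33.0% were lower in both experiments. The change was larger in experiment 2 for 7 of the 8 tested members, IFITM2 being the exception. Over all genes the SD of the changes was 0.430 in experiment 1 and 0.497 in experiment 2. The share of all genes with the larger change in experiment 2 is not given here. With 1 array per group and experiment, a difference between the experiments could not be tested. The groups did not overlap for 6 members that were lower and 1 that was higher, against 23.8% of all genes tested lower and 29.4% higher.

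The share of genes that fell was higher among short genes than among long genes on these arrays. Of the 6 members that fell, 5 have a genomic span under 5 kb, from 1.04 kb (ISG15) to 2.69 kb (BST2), and IFI27 spans 10.8 kb. Among the 2270 tested genes with a span under 5 kb, 9.82% fell and 5.15% rose, with a median change of -0.10. Among the 2118 genes with a span of 100 kb or more, 0.803% fell and 10.7% rose. IRF1 spans 9.16 kb, and of the 4256 genes from 5 to 20 kb, 5.03% fell and 8.93% rose. The part of gene span in the falls of the members was not tested.

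The identity of the cells was checked on markers. All 8 hepatocyte markers were tested, with control means from 5.21 (FGB) to 11.58 (APOA1). FGB lay below 4 of the 12 markers of other cell types in controls and is not shown to be above background. Of the 8, 1 fell, the thyroxine carrier TTR (-1.04 ± 0.14), beside 3.77% of all genes tested. The mean level of the 8 hepatocyte markers was 9.83 and 10.05 in the controls of experiments 1 and 2, and 9.74 and 9.28 in the treated cultures. The part of this shift in the result was not tested. Of 12 markers of blood, stromal, endothelial and keratinocyte cells, 9 were tested and 0 changed in either limma fit, also at an unadjusted p under 0.05. Their mean level lay between 4.42 and 4.48 on the 4 arrays. The brightest was the myeloid marker LYZ, at 9.25 and 9.23 in controls and 9.65 and 9.47 after anti-miR-191, above all 9 members. LYZ also had the largest change of that list (0.32 ± 0.15) and did not pass. After anti-miR-191 the mean levels of ISG15, IFI27 and IFITM1 each lay below 2 of the 12 markers, so these treated levels may include background. The leukocyte marker PTPRC and the plasmacytoid dendritic marker CLEC4C were below the limit for dim rows. In bulk RNA, fewer cells expressing a gene and less RNA of it per cell cannot be told apart.

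The other genes of the pathway were taken from lists of ligands, receptors, regulators and targets, and most did not pass. Among the ligands, 16 of 21 listed genes had a row and 12 of these were dim, IFNB1 (2.49 on average in controls) and IFNG (2.67) among them. Of the 4 ligands tested, 0 passed in either limma fit, also at an unadjusted p under 0.05. The type III interferon genes IFNL1, IFNL2 and IFNL3 had changes of -0.19, 0.06 and -0.15. Their mean control levels of 5.26, 4.41 and 7.68 lay below 3, 4 and 1 of the 12 markers of other cell types. IFNA13 had a change of -0.12 from a level of 3.65 in controls.

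Among receptors and kinases, the genes that passed were higher, where 10.1% of all genes tested rose and 3.77% fell. Of 6 receptor genes 2 rose and 0 fell in the paired limma fit: IFNLR1, the chain specific to type III interferons, rose (0.67 ± 0.15, adjusted p = 0.024) from a control level below 2 of the 12 markers of other cell types, and IFNGR2, a chain of the interferon gamma receptor, rose 1.49-fold (0.58 ± 0.16, adjusted p = 0.048). Quantile normalization ended both calls (adjusted p = 0.062 and 0.124), and median centring and cyclic loess ended that of IFNGR2 (0.060 and 0.074). The call of IFNGR2 also ended with rows up to the median level left out (0.053), with trended robust moderation (0.053) and with a 1.5-fold minimum. IFNAR1 and IFNAR2, the receptor of type I interferons, had changes of 0.03 and 0.01. Their control levels lay below 4 and 2 of the 12 markers of other cell types, so neither is shown to be above background. Of 4 tested genes of the JAK-STAT relay, 1 rose and 0 fell: the kinase JAK1 rose 1.78-fold (0.83 ± 0.15), with limma's adjusted p = 0.014 in the paired fit. IRF9, the DNA-binding part of ISGF3, had a change of 0.39 ± 0.14 and did not pass. The control level of IRF9 lay below 2 of these markers. None of these 3 receptor and kinase calls held in the unpaired fit (adjusted p between 0.079 and 0.106).

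None of the other tested interferon regulatory factors passed. Of 6 tested (IRF2, IRF3, IRF4, IRF5, IRF7 and IRF8), 0 passed in either limma fit, also at an unadjusted p under 0.05. Their changes lay between -0.22 (IRF8) and 0.02 (IRF2). In controls IRF2 lay below 2 of the 12 markers of other cell types, and IRF4, IRF5 and IRF8 each below 4. These genes are not shown to be above background. Of 9 negative regulators, 1 rose and 0 fell: SOCS3, which inhibits Janus kinases, rose (1.48 ± 0.14, limma's adjusted p = 0.0022). Its control level of 5.24 lay below 4 of the 12 markers of other cell types and is not shown to be above background. That 1 of 9 rose stands beside 10.1% of all genes tested. Its close relative SOCS1 had changes of 0.05 and 0.79 and did not pass. USP18, which removes ISG15 from its targets, had a mean change of 0.00 (-0.24 and 0.23).

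Of 8 tested genes of RNA and DNA sensing, 1 rose and 0 fell, beside 10.1% of all genes tested that rose. TRIM25, a ubiquitin ligase that activates the RNA sensor RIG-I, rose 2.12-fold (1.08 ± 0.14, limma's adjusted p = 0.0050 paired and 0.029 unpaired). The sensor genes RIGI, IFIH1, TLR3 and CGAS were dim. SOCS3 and TRIM25 rose in both fits.

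Antiviral genes outside the 9 were dim or did not pass. Of 41 listed, 39 had a row, 20 were dim and 19 were tested, and 0 passed in either limma fit (1 in the paired and 0 in the unpaired fit at an unadjusted p under 0.05). Their median change was 0.05, and -0.02 after quantile normalization. The changes farthest from 0 were those of the kinase EIF2AK2 (0.50 ± 0.27, with 1.12 and -0.12 in the 2 experiments) and of IFI35 (-0.48 ± 0.15). MX1 had a change of -0.08 and OAS1 a change of 0.08. In controls, all of the 19 except IFI35, ADAR and TRIM14 lay below 2 or more of the 12 markers of other cell types. Those genes are not shown to be above background, so their small changes do not show that they were unchanged. IFIT2, IFIT3, RSAD2, IFI44 and CXCL10 were dim, as IFIT1 was. The ISG15 conjugation enzymes UBA7 and UBE2L6 had changes of -0.10 and -0.24 and did not pass. UBA7 lay below 4 of the same markers in controls.

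Among 10 tested genes of antigen presentation and related IRF1 targets, 1 rose and 1 fell. Of the 17 genes listed, 12 had a row with 1 symbol, so the list is covered in part. With all rows of a gene tested instead of the brightest, 1 row was higher and 3 rows were lower. Of all genes tested, 10.1% rose and 3.77% fell. WARS1, a tryptophan tRNA synthetase induced by interferon gamma, rose 1.64-fold (0.71 ± 0.15, limma's adjusted p = 0.019), and PSMB8, a subunit of the immunoproteasome, fell 1.66-fold (-0.74 ± 0.14, limma's adjusted p = 0.016). Neither passed in the unpaired limma fit (adjusted p = 0.081 and 0.179). The mean treated level of PSMB8 lay below 2 of the 12 markers of other cell types and may include background. PSMB9, TAP1 and B2M had changes of -0.21, 0.06 and 0.16. PSMB9 lay below 4 of these markers in controls.

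Relatives of the members moved in part, where 3.77% of all genes tested fell and 10.1% rose. Of 5 tested, 2 fell and 0 rose: IFI27L1 fell 2.10-fold (-1.07 ± 0.15, limma's adjusted p = 0.0061) and IFI27L2 fell 1.74-fold (-0.80 ± 0.14, limma's adjusted p = 0.013). Both lie beside IFI27 on chromosome 14. In the unpaired limma fit neither passed (adjusted p = 0.062 and 0.088). The mean treated levels of IFI27L1 and IFI27L2 each lay below 2 of the 12 markers of other cell types and may include background. IFI30, the brightest relative (9.33 on average in controls), had changes of -0.59 and -0.47 and narrowly did not pass (limma's adjusted p = 0.0501, paired). Of the 5 tested, 4 were lower in both experiments, beside 33.0% of all genes tested, and their median change was -0.53. The falls numbered 3 without the filter on dim rows, with all rows tested and with trended robust moderation. IFITM5, which lies in the IFITM cluster, had changes of -0.29 and 0.22, from a control level below 4 of the 12 markers.

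**Figure D3:**
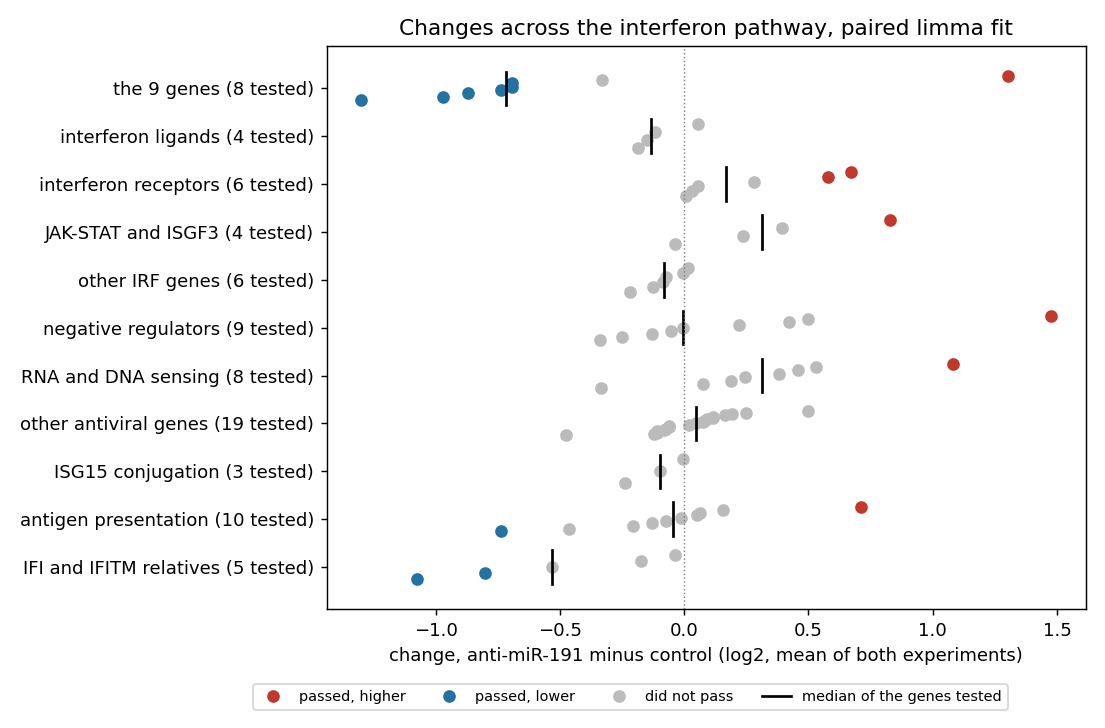
Mean change (log2) of every tested gene of the 9 and of 10 pathway lists, in red or blue where the gene passed in the paired limma fit as higher or lower. The 6 lower members stand left of the 19 other antiviral genes, none of which passed, and the risen genes are IRF1, SOCS3, TRIM25, JAK1, WARS1, IFNLR1 and IFNGR2. Of those 19, all but IFI35, ADAR and TRIM14 are not shown to be above background.

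Genes with an ISRE core in the promoter window were described beside all genes. Of 330 tested genes with the core outside the 9, 39 rose (11.8%) and 12 fell (3.64%), with a median change of 0.06. Of all 11054 tested genes with a promoter entry, 10.8% rose and 3.76% fell, with a median change of 0.02. Of 793 tested genes with the GAS core outside the 9, 9.71% rose and 3.4% fell.

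The genes whose profile was most like that of BST2 came from other families. Likeness was the root mean square difference over the 4 arrays after centring each gene on its mean, and the 5 smallest outside the members were named. They were the copper chaperone ATOX1 (0.043), the glutathione transferase relative MGST2 (0.044), the anaphase-promoting complex subunit ANAPC11 (0.059), the calcium-binding S100P (0.068) and TMEM258 (0.076). ATOX1 read 8.28 and 8.47 in controls and 7.17 and 7.08 after anti-miR-191. For the mean profile of the 8 tested members the nearest were MIR365A (0.018), CHID1 (0.018), MYL6B (0.020), PRELID1 (0.023) and RLBP1 (0.024). With 4 arrays in 2 groups, many genes share such a profile.

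Without the experiment block, most calls ended when 1 array was left out, while the members that had passed kept their direction of change. With the treated array of experiment 1 left out, BST2 and IRF1 passed in the unpaired limma fit (adjusted p = 0.047 and 0.024). Without any one of the other 3 arrays 0 of the 8 tested members passed (7 at an unadjusted p under 0.05 in each case), and 0 of all genes tested. BST2 then had adjusted p values of 0.095 to 0.123 by limma, with changes from -1.42 to -1.18.

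**Figure D4:**
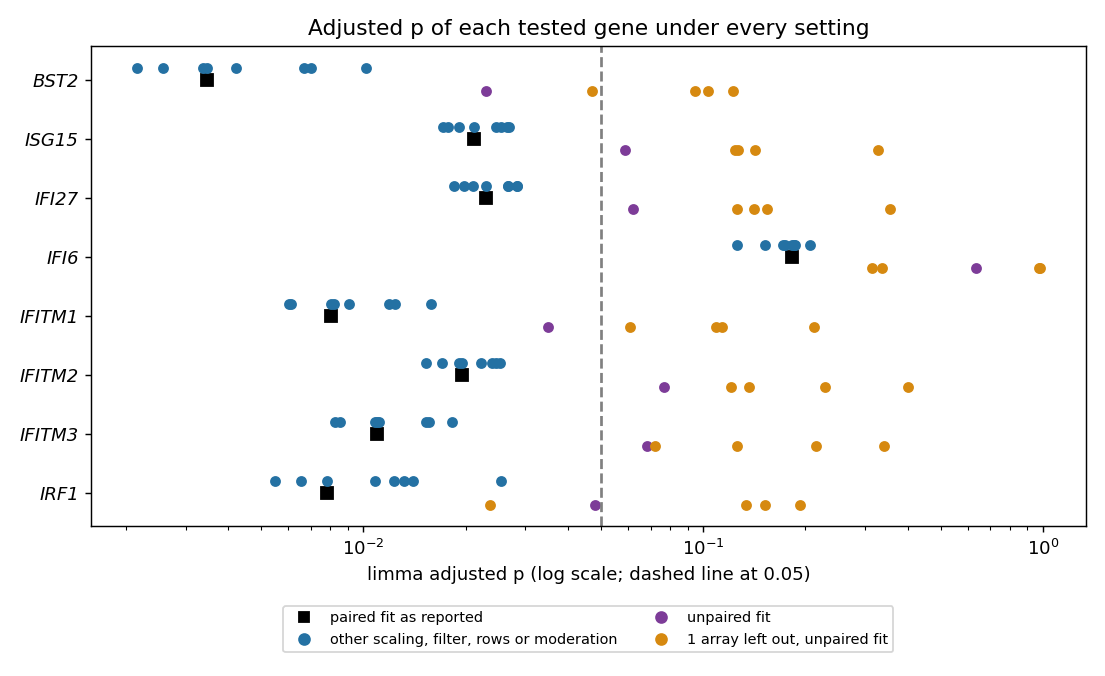
Limma adjusted p of the 8 tested genes (log scale) in the paired fit (black squares), under other scalings, filters and moderation (blue), in the unpaired fit (purple) and with 1 array left out (orange). All blue points of the 7 genes that passed lie left of the dashed line at 0.05, while ISG15, IFI27, IFITM2 and IFITM3 lie right of it in the unpaired fit (0.059 to 0.077).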

How the data were processed

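RNA of 4 HepG2 cultures was hybridised to 1 Affymetrix array each, 2 per group. The authors deposited log2 intensity values made by RMA in the Affymetrix program Expression Console, per the submitters' processing notes. The sources used here name no version and do not say which arrays were normalized jointly, and the log base was taken from the range of the values. Array medians lay between 4.37 and 4.43. RMA values carry no counting depth, so the number of arrays limits precision.

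Rows were named through GEO's platform annotation, and the dimmest 33.3% (mean under 3.41) were left out, with the brightest row per gene kept. Limma 3.58.1 (R 4.3.3) was fitted to all 14147 genes, two-sided, with the experiment as a block. The pairing comes from the series text and the numbered titles, and same-numbered arrays' deviations correlated at 0.335. The paired fit has 1 residual and 6.6 prior degrees of freedom, and the unpaired fit has 2 and 4.32. Members and lists were chosen with earlier results of these data known. Every member is named, and of each list the genes past the threshold or up to 4 with the largest change. USP18, SOCS1, IRF9, IFNAR1, IFNAR2, MX1, OAS1, ADAR, TRIM14, PSMB9, TAP1, B2M, IFITM5, IFI30 and the dim genes were added after their values were seen.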

Additional observations from a re-analysis of the deposited data

Results flagged for a closer look

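A difference between the experiments in direction was seen for 3 list medians, and with 1 array per group and experiment it was not tested. The 8 hepatocyte markers moved by a median of 0.015 in experiment 1 and by -0.91 in experiment 2. The 19 tested antiviral genes outside the members moved by a median of 0.045 in experiment 1 and by -0.11 in experiment 2. The 9 tested markers of other cell types moved by a median of -0.020 in experiment 1 and by 0.044 in experiment 2.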

How the results depend on the processing

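Of the 9 genes, 7 passed in the paired fit and also under median centring, quantile normalization, cyclic loess, both other filters on dim rows, all rows tested, trended robust moderation and a 1.5-fold minimum. Without the replicate block 3 passed (BST2, IFITM1 and IRF1), and 553 of all genes in place of 1961. With 1 array left out of the unpaired fit, the counts ranged from 0 to 2 members and from 0 to 339 genes. The settings with 0 genes still had 1663, 2432 and 3178 genes at an unadjusted p under 0.05 by limma. Fewer arrays were fitted there, and no other cause was tested. IFI6 changed sign when the treated array of experiment 2 (0.063) or the control array of experiment 1 (0.040) was left out. No other member changed sign under any setting run. Each member has 1 row, so no second row could be tried. With 2 arrays per group, RMA values and no detection call, levels near those of markers of other cell types cannot be told from background.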

Other observations

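The genes next to the members were examined within 50 kb, a choice made after the values of the members were seen. MVB12A, a subunit of the ESCRT-I sorting complex whose gene lies 111 bases from BST2 in RefSeq, fell by 0.81 (-0.89 and -0.73 in experiments 1 and 2, limma's adjusted p = 0.013 in the paired fit). The next neighbours of BST2, PLVAP and TMEM221, had changes of -0.13 and -0.26 and did not pass. AGRN, the nearest tested neighbour of ISG15, had changes of 0.02 and 0.55. Beside the IFITM genes, PGGHG and NLRP6 had mean changes of 0.06 and -0.15, and neither passed.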
